A study of Mus musculus with 8 samples.

Results

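Heart muscle genes were followed in lungs dissected whole from mouse embryos of day 14.5 of gestation. They are 10 genes of cardiac muscle cells, Actc1, Tnnt2, Nkx2-5, Tnnc1, Tnni3, Myl4, Myl7, Myh6, Myh7 and Nppa, of 22180 genes measured. Each was taken by its symbol from the platform annotation, and each had 1 probe set with that single symbol. The 4 control embryos carried Shh-cre, a Cre driver active in the lung epithelium. The 4 mutant embryos carried Shh-cre with both copies of Ezh2 floxed, so deletion of this histone methyltransferase gene was directed at epithelium and not at muscle. All 8 embryos had a mixed background of C57BL/6 and 129S6. Controls share the Cre with the mutants, and their sample titles name no floxed allele. There were 4 litters with 2 embryos each, controls 1 and 2, controls 3 and 4, mutants 1 and 2, and mutants 3 and 4. Each litter had a single genotype, so a difference between genotypes always runs between litters. Expression was measured on 1 array per embryo, as log2 values. Ezh2 itself, read in all cells of the organ, ranged from 11.83 to 11.93 in controls and from 11.75 to 11.80 in mutants and did not pass the test used below, so it is a weak check of the labels. Xist, a marker of female embryos, was low in controls 1 and 2 and mutant 3 (6.37 to 6.74) and high in the other 5 (12.61 to 13.00).

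The sarcomere, the contractile unit of heart muscle, slides actin filaments along myosin filaments. Heavy chains of myosin (Myh6, Myh7) carry the motor, light chains (Myl4, Myl7) stabilise its lever, and the troponin complex (Tnnt2, Tnnc1, Tnni3) on actin (Actc1) switches contraction with calcium. Nkx2-5 is a homeobox transcription factor of the heart lineage, and Nppa encodes atrial natriuretic peptide. In mice, heart muscle cells also sheath the pulmonary veins, so these genes can be read from lung tissue as well as from heart left on a dissected lung. Actc1 is in addition used by developing smooth and skeletal muscle. In whole organs, fewer cells of a type and less RNA per cell cannot be told apart.

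Promoters of 4 members are shown because the results turn on them. Actc1 and Nkx2-5 were the members whose genotypes did not overlap, and Myl4 and Myl7 were the pair with the highest r over the 8 embryos. Each sequence is from RefSeq, GRCm38.p6, and runs 5′ to 3′ from 250 bases before to 50 bases after a transcription start. For each of these 4 genes the table gives 1 start, and others may exist. All 10 members matched this table, with 12 windows in all. Capitals mark matches, on either strand, to motifs of factors known in heart muscle: AGATAA for GATA factors, AAGTG for the core of NKX2 factors, CATTCC for the MCAT element of TEAD factors, the CArG box of SRF and the MEF2 element.
Actc1 (chr2:114052826-114053125, minus strand): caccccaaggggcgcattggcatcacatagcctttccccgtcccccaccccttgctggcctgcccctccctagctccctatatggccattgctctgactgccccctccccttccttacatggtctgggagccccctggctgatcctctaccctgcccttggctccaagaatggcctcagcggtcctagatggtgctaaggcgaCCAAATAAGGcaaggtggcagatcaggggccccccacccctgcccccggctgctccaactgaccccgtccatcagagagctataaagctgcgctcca
Nkx2-5 (chr17:26841516-26841815, minus strand): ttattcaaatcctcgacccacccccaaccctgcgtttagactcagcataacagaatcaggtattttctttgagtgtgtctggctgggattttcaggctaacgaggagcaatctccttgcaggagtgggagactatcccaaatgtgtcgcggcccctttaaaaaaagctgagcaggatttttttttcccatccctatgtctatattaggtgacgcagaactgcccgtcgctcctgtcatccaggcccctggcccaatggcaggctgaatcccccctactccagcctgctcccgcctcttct
Myl7 (chr11:5898733-5899032, minus strand): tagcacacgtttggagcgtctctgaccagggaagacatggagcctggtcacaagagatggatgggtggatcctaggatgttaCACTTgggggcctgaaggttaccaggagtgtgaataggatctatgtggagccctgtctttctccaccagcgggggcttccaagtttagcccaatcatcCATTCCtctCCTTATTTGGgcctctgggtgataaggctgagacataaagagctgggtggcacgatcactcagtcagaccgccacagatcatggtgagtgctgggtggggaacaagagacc
Myl4 (chr11:104550413-104550712, plus strand): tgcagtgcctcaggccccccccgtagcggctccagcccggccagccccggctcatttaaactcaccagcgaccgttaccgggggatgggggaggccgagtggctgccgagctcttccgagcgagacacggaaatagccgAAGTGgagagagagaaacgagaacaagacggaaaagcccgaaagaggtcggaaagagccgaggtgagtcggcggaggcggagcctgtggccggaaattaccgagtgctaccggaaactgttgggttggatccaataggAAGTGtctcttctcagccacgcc

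The Actc1 window held a CArG box starting at position -47 from the start. Myl7 held an NKX2 core at -168, an MCAT element at -70 and a CArG box at -61. Myl4 held NKX2 cores at -111 and 28, and no searched motif was found in the Nkx2-5 window. None of these matches overlapped another. CArG boxes were present in 2 of the 12 member windows and in 1.63% of 32851 promoter windows of the same length. The MCAT letters were in 5 of 12 against 14.7%, the NKX2 core in 6 of 12 against 46.4%, the GATA letters in 1 of 12 against 11.2% and the MEF2 element in 0 of 12 against 3.19%. These counts are of windows, and the 2 windows of Myh7 overlap, so 1 NKX2 core that lies in both is counted in each. A match of letters is a description and shows no binding.

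None of the 10 genes passed the test between genotypes. The test was limma, a linear model of genotype with litter as a random block, with Benjamini-Hochberg adjustment over all 22180 genes and a threshold of 0.05. By this rule 0.852% of all genes passed (0.604% higher, 0.248% lower), and 0 of 10 members did. At an unadjusted p under 0.05 by limma, 2 of 10 members were counted, Actc1 and Nkx2-5, against 9.87% of all genes. The genotypes did not overlap for the same 2 genes, against 8.07% of all genes (4.48% higher, 3.6% lower). Their differences ran in opposite directions. The median log2 change of the members was 0.09, with 7 above and 3 below 0, and that of all genes was 0.01. Without litter 4, which holds mutants 3 and 4, the members' median was −0.026. Without litter 3, which holds mutants 1 and 2, it was 0.228.

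**Figure D1:**
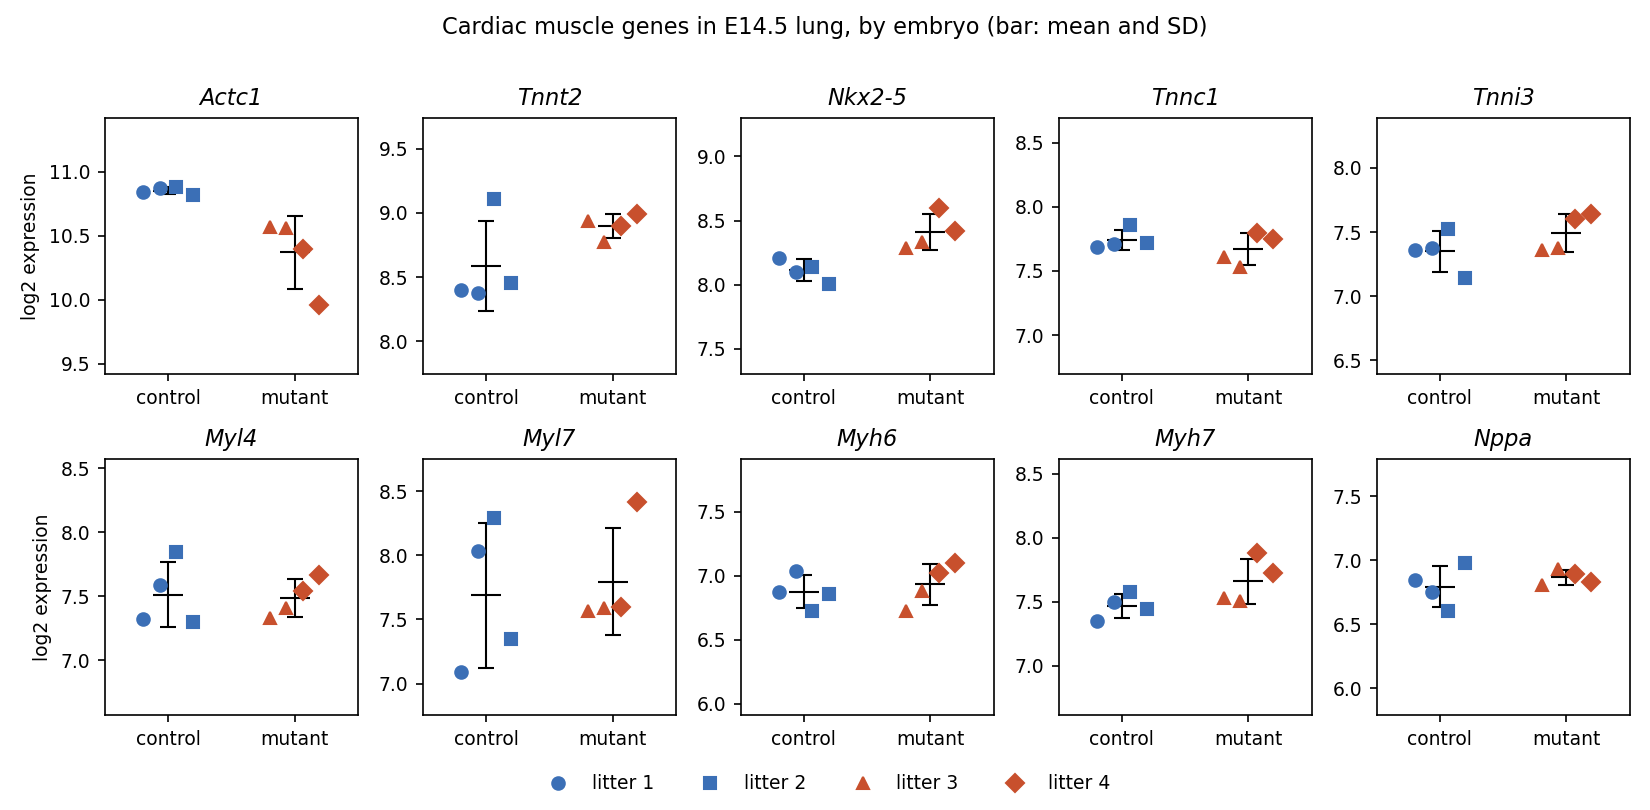
Log2 expression of each cardiac gene (vertical axis, a span of 2 log2 units in every panel) in 4 control embryos (blue) and 4 mutant embryos (orange), with marker shape for the litter and bars for the mean and SD. Actc1 is lower and Nkx2-5 higher in every mutant than in every control, Tnnt2 is low in 3 of 4 controls, and Myl7 spreads widely in both genotypes.

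Actc1, the gene of cardiac alpha-actin, was almost level among controls, with log2 values of 10.84, 10.87, 10.88 and 10.82 in controls 1 to 4. In mutants 1 to 4 the values were 10.57, 10.56, 10.40 and 9.96. Every mutant lay below every control, and mutant 4 lay furthest down. Controls averaged 10.85 ± 0.03 (SD, n = 4), and the mutant mean was 10.37 ± 0.28 (SD, n = 4). The log2 change was −0.48, with a 95% interval of −0.75 to −0.21 (limma, Benjamini-Hochberg adjusted p = 0.148). On the linear scale controls were 1.40-fold higher. The two-sided exact permutation p for Actc1 alone was 0.0286, the lowest value possible with 4 embryos a side, and it treats littermates as independent. Without mutant 4 the log2 change was −0.35 and the adjusted p by limma was 0.0804. Since the groups did not overlap, leaving out an embryo could not turn its sign. Without litter 3, which holds mutants 1 and 2, the log2 change was −0.67 and passed (limma, Benjamini-Hochberg adjusted p = 0.0347). Without litter 4 it was −0.29 and did not pass (limma, adjusted p = 0.117). Fits with a litter left out had no litter block. The mutants left came from a single litter and were taken as independent. Over the 23 alternatives listed for this comparison the adjusted p by limma ranged from 0.0347 to 0.343.

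Because Actc1 is also a gene of immature smooth muscle, smooth muscle genes are given beside it. Among 13 of them 0 rose and 1 fell, and their median log2 change was −0.09. Log2 changes were above 0 for 3 of the 13, at most 0.14, and below 0 for 10. The gene that fell was Cnn1, the gene of calponin, by 0.46 on the log2 scale (limma, Benjamini-Hochberg adjusted p = 0.0366). It passed in 11 of 23 alternatives, with adjusted p from 0.00813 to 0.135 by limma, and among single embryos not without control 1 or 2 or mutant 1, 3 or 4 (0.0515, 0.0748, 0.0899, 0.0639 and 0.0928). Actg2, gamma-actin of smooth muscle, had 10.84, 10.89, 11.06 and 10.81 in controls and 10.47, 10.66, 10.24 and 10.57 in mutants. Its groups did not overlap either, and its log2 change of −0.41 did not pass. Groups did not overlap for 3 of the 13 genes, against 8.07% of all genes. Acta2, alpha-actin of smooth muscle, had a log2 change of −0.05, Foxf1, a mesenchymal transcription factor, −0.03, and Hhip, a hedgehog-binding protein, −0.22. Within mutants Actc1 was lowest in mutant 4, as were Acta2 and Hhip, while Cnn1 and Actg2 were lowest in mutant 3 and Foxf1 in mutant 1. Acta2 ran only from 12.83 to 12.88 in mutants, so its order carries little. The mean level of the smooth muscle list was 9.97 to 10.04 in controls and 9.85 to 9.91 in mutants. The part of smooth muscle in the Actc1 values was not tested.

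Nkx2-5, the heart lineage factor, differed the other way. Controls 1 to 4 had log2 values of 8.21, 8.10, 8.14 and 8.003, and mutants 1 to 4 had 8.29, 8.34, 8.60 and 8.42. All mutants lay above all controls, with a gap of less than 0.1 between the nearest embryos, control 1 and mutant 1. The log2 change was 0.30, with a 95% interval of 0.12 to 0.48 (limma, Benjamini-Hochberg adjusted p = 0.179). The two-sided exact permutation p for Nkx2-5 alone was 0.0286. As for Actc1, this is the lowest value possible, follows from the lack of overlap and treats littermates as independent. With the level of Xist as a covariate, the log2 change was 0.34 and the gene passed at an adjusted p of 0.0183 by limma. That fit called 361 of all genes higher and 313 lower, against 134 and 55 without the covariate. Over the 23 alternatives the adjusted p of Nkx2-5 by limma ranged from 0.0183 to 0.491.

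Among the troponins, Tnnt2, cardiac troponin T, depended on which controls were included. Controls 1, 2 and 4 had log2 values of 8.40, 8.37 and 8.45, and control 3 had 9.11. Mutants 1 to 4 had 8.94, 8.77, 8.90 and 8.99. Mutants were thus above 3 controls and below control 3. The log2 change was 0.32, with a 95% interval of −0.03 to 0.66 (limma, Benjamini-Hochberg adjusted p = 0.565). Without control 3 it was 0.49 and passed, at an adjusted p of 0.0139 by limma. Without litter 2, which holds controls 3 and 4, it was 0.51 with an adjusted p of 0.0228 by limma. Without litter 1, which holds controls 1 and 2, it was 0.12 (adjusted p = 0.773 by limma). Fits with a litter left out had no litter block, unlike the fit without control 3. The controls left came from a single litter and were taken as independent. Controls 3 and 4, which are littermates, differed by 0.66 for this gene, against a median of 0.10 over all genes in that litter.

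Tnni3, the inhibitory subunit cardiac troponin I, had log2 values of 7.36, 7.38, 7.52 and 7.14 in controls and 7.36, 7.38, 7.60 and 7.64 in mutants. The groups overlapped, with a log2 change of 0.15 and a 95% interval of −0.08 to 0.37. The change was 0.02 without litter 4 and 0.27 without litter 3. Tnnc1, the calcium-binding subunit of slow and cardiac muscle, had 7.69, 7.71, 7.86 and 7.72 in controls and 7.61, 7.53, 7.80 and 7.75 in mutants. It varied least among the members, and its log2 change was −0.07 with a 95% interval of −0.24 to 0.09. The troponin genes therefore gave changes of both signs, and none passed the test with all 8 embryos.

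**Figure D2:**
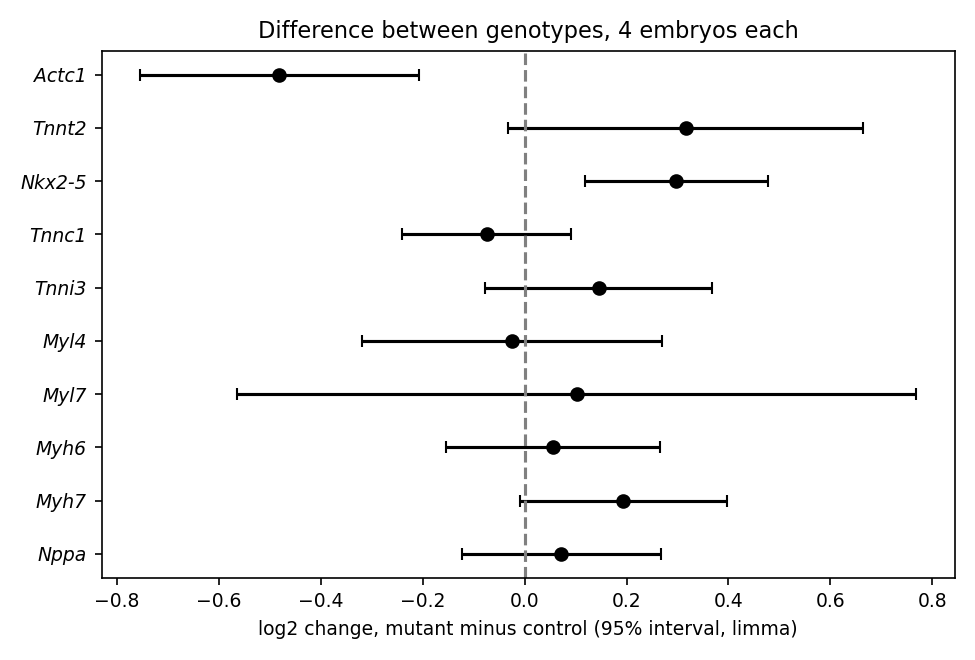
Log2 change of each cardiac gene, mutant minus control (horizontal axis), with the 95% interval of the limma fit, 4 embryos per genotype. The intervals of Actc1 (−0.75 to −0.21) and Nkx2-5 (0.12 to 0.48) lie on opposite sides of 0, the other 8 include 0, and the interval of Myl7 is the widest.

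The light chain gene Myl7, which encodes the regulatory light chain of atrial and early embryonic heart muscle, varied more than any other member. Controls 1 to 4 had log2 values of 7.09, 8.04, 8.29 and 7.35, and mutants 1 to 4 had 7.57, 7.59, 7.59 and 8.42. Control 2, control 3 and mutant 4 were high and the other embryos low, so both genotypes held high and low embryos. Controls averaged 7.69 ± 0.57 and mutants 7.79 ± 0.42 (SD, n = 4 each). The log2 change was 0.10, with a 95% interval of −0.56 to 0.77 (limma, Benjamini-Hochberg adjusted p = 0.949). In linear terms the interval runs from 0.676-fold to 1.70-fold, so a lack of difference was not shown.

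The spread of Myl7 ran within litters. Littermates differed by 0.95, 0.94, 0.02 and 0.82 log2 units in litters 1 to 4, where the median gene differed by 0.08, 0.10, 0.08 and 0.10. Only in litter 3 were the 2 embryos alike. The within-genotype SD of Myl7, 0.50, ranked 34th among 22180 genes. That of all genes had a median of 0.10, and all 10 members lay above it. Tnnt2 (0.26), Myl4 (0.21), Actc1 (0.20) and Tnni3 (0.15) followed, and Tnnc1 (0.10) was closest to the median gene.

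**Figure D3:**
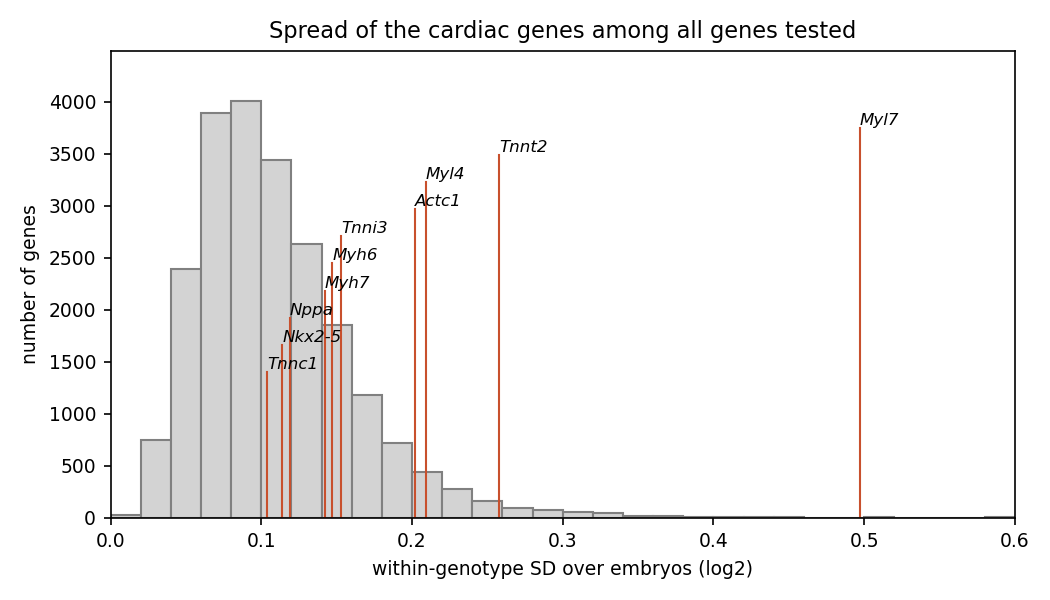
Number of genes (grey bars, vertical axis) by their within-genotype SD in log2 units (horizontal axis, shown up to 0.6), with an orange line for each cardiac gene. Line heights only separate the labels. Myl7 stands at 0.50, far to the right of the median of all genes at 0.10, and Tnnc1 at 0.10 lies close to it.

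Myl4, the essential light chain of atrial muscle, followed a similar but not identical order on a smaller scale. Its log2 values were 7.32, 7.58, 7.84 and 7.30 in controls 1 to 4 and 7.33, 7.41, 7.54 and 7.67 in mutants 1 to 4. Its log2 change was −0.03, with a 95% interval of −0.32 to 0.27. Control 2, control 3 and mutant 4 again had the 3 highest values. Over the 8 embryos Myl4 and Myl7 had a Pearson r of 0.89 (exact permutation p = 0.00283, adjusted p = 0.127 over 45 member pairs) and a Spearman rho of 0.95 (exact permutation p = 0.00114, adjusted p = 0.0513). The r was 0.80 without the 2 embryos farthest from the median, and 0.91 for deviations from the genotype means, where Tnnc1 and Myh7 were higher at 0.93 (0.44 over the 8 embryos). These tests take littermates as independent, and neither adjusted value passed 0.05.

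**Figure D4:**
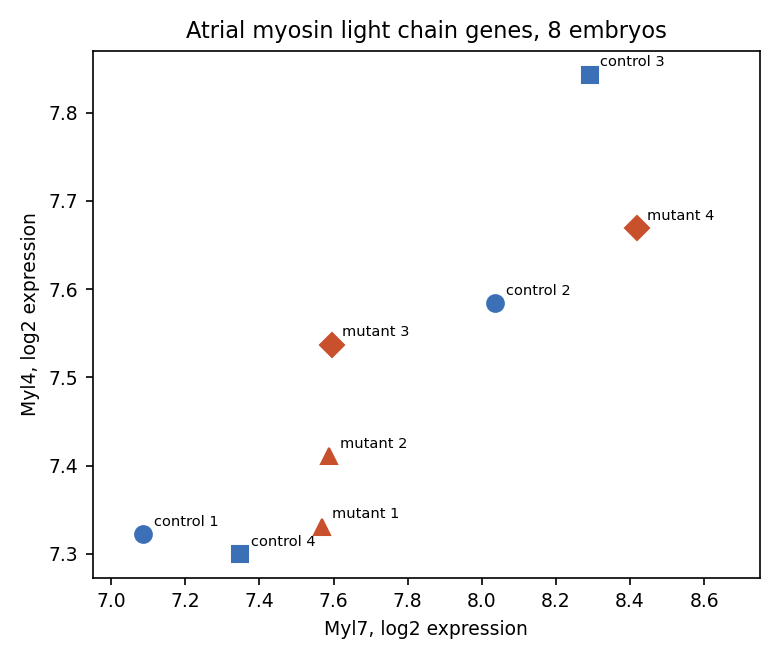
Log2 expression of Myl4 (vertical axis) against Myl7 (horizontal axis) in the 8 embryos, controls in blue and mutants in orange, with marker shape for the litter. Control 2, control 3 and mutant 4 are high for both genes, and littermates lie apart in litters 1, 2 and 4.

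The heavy chain genes lie next to each other in the RefSeq annotation, and they encode closely related proteins, and whether their probe sets share signal was not tested. Myh6, alpha heavy chain, had log2 values of 6.87, 7.04, 6.73 and 6.86 in controls and 6.73, 6.88, 7.02 and 7.10 in mutants. Its log2 change was 0.06 with a 95% interval of −0.15 to 0.27. The groups overlapped throughout. Myh7, beta heavy chain, had 7.35, 7.50, 7.58 and 7.44 in controls and 7.53, 7.51, 7.88 and 7.73 in mutants. Its log2 change was 0.19 with a 95% interval of −0.01 to 0.40 (limma, Benjamini-Hochberg adjusted p = 0.541). The change was 0.05 without litter 4 and 0.34 without litter 3. Mutants 3 and 4 lay above every control, and mutants 1 and 2 lay among them.

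Nppa, the hormone gene of atrial muscle, had log2 values of 6.84, 6.75, 6.60 and 6.98 in controls and 6.81, 6.93, 6.89 and 6.83 in mutants. Its log2 change was 0.07 with a 95% interval of −0.12 to 0.27, and all mutants lay inside the range of the controls. The order of embryos was not that of the atrial light chains. Control 3, high for Myl4 and Myl7, was the lowest of all for Nppa, and the r between Nppa and Myl4 was −0.75 (rho −0.69; exact permutation p = 0.0286 and 0.0694, adjusted p = 0.257 and 0.347 over 45 pairs; r −0.44 without the 2 embryos farthest from the median for Myl4, and −0.20 without those for Nppa). Its neighbour Nppb, the gene of the related peptide of ventricle and atrium, differed by 0.09 on the log2 scale, short of the threshold.

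**Figure D5:**
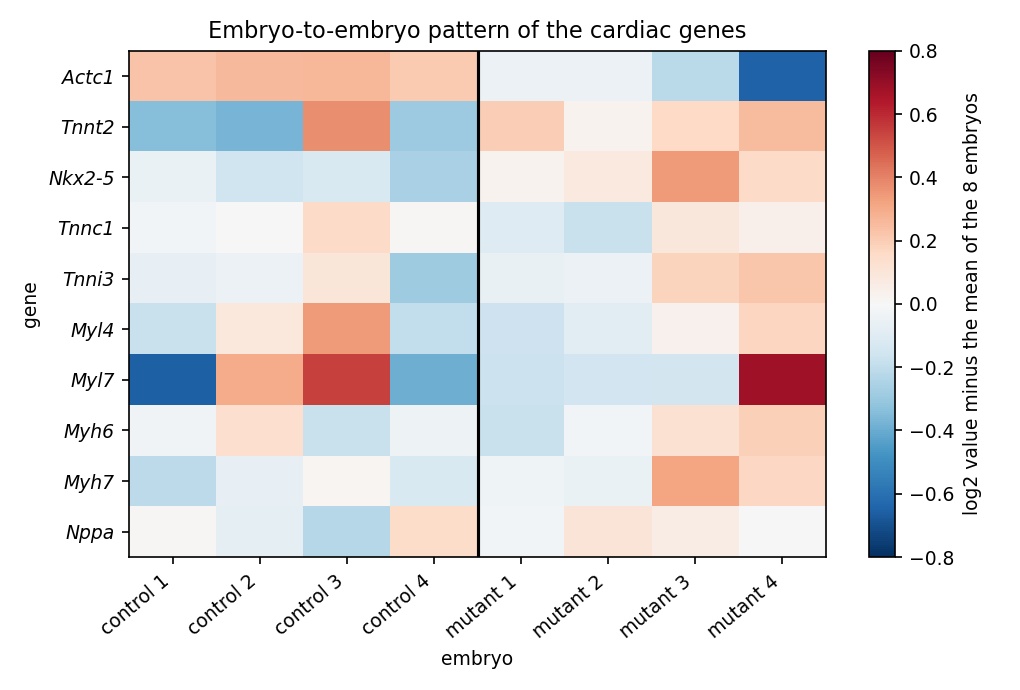
Log2 value of each cardiac gene (rows) in each embryo (columns) minus that gene's mean over the 8 embryos, in colour from −0.8 (blue) to 0.8 (red). A black line separates controls from mutants. No embryo is high or low for all genes: mutant 4 is highest for Myl7 and lowest for Actc1, and control 3 is high for Tnnt2, Myl4 and Myl7 and low for Nppa.

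The members did not vary as 1 block. Of 45 pairs, 29 had a positive r and 5 an r above 0.7, and the median r was 0.27. For deviations from the genotype means, 29 of 45 were positive and the median was 0.26. With Pearson's r, 7 pairs had an exact permutation p under 0.05 and 0 passed after Benjamini-Hochberg adjustment over the 45. Against Tnnt2, the usual marker of heart muscle cells, 0 of the 9 other members passed, with the largest r at 0.69 for Tnni3 (rho 0.55; exact permutation p = 0.059 and 0.171, adjusted p = 0.267 and 0.385). That r was 0.82 without controls 1 and 2, the embryos farthest from the median of Tnnt2. The lowest r with Tnnt2 was −0.53, for Actc1 (rho −0.26; exact permutation p = 0.165 and 0.536, adjusted p = 0.267 and 0.582). It was −0.29 without controls 1 and 2, and −0.13 for deviations from the genotype means. In these alternatives Nppa had the lowest r with Tnnt2, −0.83 and −0.76, against −0.39 over all 8 embryos (rho −0.33; exact permutation p = 0.345 and 0.428, adjusted p = 0.443 and 0.55), and without the 2 embryos farthest from the median of Nppa it was 0.39. The mean log2 value of the 10 members was 7.80, 7.93, 8.05 and 7.81 in controls and 7.87, 7.89, 8.02 and 8.05 in mutants, so the genotypes overlapped.

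The genes most like this mean over the 8 embryos, among 1162 named genes with an SD of at least 0.2, were Ttc30b (r 0.90), Apoc1 (0.88), H2-DMb2 (0.88), Myrfl (0.88), Mall (0.81), Gulo (0.81), Tbx20 (0.80), Btbd35f1 (0.77), Cyp2j8 (0.77) and Csrp3 (0.76). Of these, Tbx20 is a transcription factor of the heart and Csrp3 a LIM protein of heart and skeletal muscle. Ttc30b is a ciliary transport protein, Apoc1 an apolipoprotein and Gulo an enzyme of vitamin C synthesis. The mean was taken of unscaled log2 values, so Myl7, the member with the widest spread, weighs heavily in it. The share of heart genes among the 1162 was not counted. The ranking is a description over 8 arrays.

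Other heart genes ranged less over the 8 embryos than Myl7, by at most 1.11 log2 units (Isl1), and none passed. Of 11 atrial and conduction genes, 9 ventricular genes, 22 further sarcomere genes, 11 calcium and channel genes, 10 energy genes and 15 heart transcription factors measured, 0 rose and 0 fell. Their median log2 changes were 0.04, 0.07, 0.02, 0.03, 0.05 and 0.04 in the same order, beside 0.01 for all genes. Sln, the atrial calcium pump regulator sarcolipin, had log2 values of 5.06 to 5.15 in controls and 5.04 to 5.29 in mutants. Myl2 and Myl3, the ventricular light chains, ranged over only 0.19 and 0.14 log2 units across the 8 embryos, where Myl7 ranged over 1.33. Ttn (titin) ranged over 0.28 and Actn2 (alpha-actinin of the Z-disc) over 0.32. The atrial genes Bmp10 and Gja5 had log2 changes of −0.09 and −0.11. Without detection calls, low values say nothing about absence of a transcript.

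Several heart regulators serve the lung as well. Tbx5, a T-box factor of heart and lung mesenchyme, had 11.95 ± 0.07 in controls and 12.09 ± 0.07 in mutants (SD, n = 4), Gata6 10.78 ± 0.03 and 10.79 ± 0.08, Gata5 11.06 ± 0.03 and 11.12 ± 0.09, and Mef2a 11.79 ± 0.09 and 11.87 ± 0.04. None passed. Among the brightest genes of the other heart lists, Tpm1 (tropomyosin 1) had a log2 change of −0.16, Cryab (a small heat shock protein) 0.28, Fabp3 (a fatty acid carrier) −0.21, Atp2a2 (the calcium pump SERCA2) −0.01 and Tbx3 0.16, and none passed. The largest difference in these heart lists, named here after its value was seen, was in Isl1, a factor of cardiac progenitors and of several other lineages. Its log2 values were 7.61, 7.48, 7.35 and 7.06 in controls and 7.78, 8.18, 7.90 and 8.05 in mutants. The groups did not overlap, and its log2 change of 0.60 did not reach the threshold (limma, Benjamini-Hochberg adjusted p = 0.0661). In the heart lists, in the order given above, groups did not overlap for 1 of 11, 1 of 9, 2 of 22, 1 of 11, 1 of 10 and 1 of 15 genes. Among all genes the share was 8.07%.

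Genes of other tissues that could carry muscle RNA were read in the same way. Of 20 skeletal muscle genes, 0 rose and 0 fell, with a median log2 change of 0.02. Their mean level was 6.52 to 6.65 in controls and 6.54 to 6.68 in mutants. Acta1, skeletal alpha-actin, had a log2 change of −0.02, Tnnt3 0.01, Tnnc2 0.02 and Myog, a regulator of muscle differentiation, −0.08. Of 10 genes of epicardium and mesothelium, Upk1b rose by 0.46 (limma, Benjamini-Hochberg adjusted p = 0.0102) and 9 did not pass. Its call was lost in 5 of 23 alternatives, without control 4, mutant 4, litter 2 or litter 4 and with litter means (adjusted p of 0.0515, 0.0517, 0.0634, 0.0724 and 0.0983 by limma). Of 9 endothelial and endocardial genes and 5 erythroid genes, 0 passed. Of the 9, 8 had a log2 change above 0, against 11728 of all 22180 genes. The groups did not overlap for 3 of the 9, against 8.07% of all genes. They were Cdh5, Tek and Npr3, with log2 changes of 0.10, 0.19 and 0.34 (limma, Benjamini-Hochberg adjusted p = 0.636, 0.431 and 0.0622). Of 9 genes of thymus, liver, oesophagus and pharyngeal tissue, Krt4 (log2 change 1.22) and Pax9 (0.78) rose and the other 7 did not. Of 10 lung epithelium genes, 0 rose and 0 fell, and 7 had a log2 change below 0, against 10452 of all 22180 genes. The groups did not overlap for 3 of these 10 genes, against 8.07% of all genes. They were Epcam, Etv5 and Shh, with log2 changes of −0.26, −0.33 and −0.28. None of them passed (limma, Benjamini-Hochberg adjusted p = 0.139, 0.0611 and 0.163). The lung markers Nkx2-1 and Sftpc had log2 values of 10.63 to 10.94 and 12.62 to 13.11 over the 8 embryos. The part of tissue carried along at dissection in the cardiac values was not tested.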

How the data were processed

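Log2 expression values of 8 arrays, 1 per embryo, were used as deposited. Per the submitters' processing notes the authors made these log2 values with RMA in oligo, which corrects background, normalizes between arrays and summarizes probes, and draws changes of dim genes towards 0. No version or option is named in the labels. Per the labels, 100 ng of total RNA was amplified per array. Array medians were 7.05 to 7.12 and arrays correlated at 0.9915 to 0.9976 over genes. The number of arrays limits the precision.

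Of 41345 probe sets 23521 had 1 gene symbol, 1814 had several and 16010 were not listed. The brightest probe set per gene gave 22180 genes. Fits used limma 3.58.1 in R 4.3.3, with litter as a random block (correlation 0.153), two-sided, and were checked on simulated data. Correlations and figures used Python 3.11.15 with numpy 2.4.6 and matplotlib 3.10.9. Embryos are separate animals, and littermates share a dam.

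The members and gene lists were chosen with earlier results of these data known. Named genes are the 10 members, the 4 brightest and any called genes of each other list, and the 10 genes most like the members' mean, with markers of atrium and ventricle. Nppb, Actn2, Ttn, Isl1, Tek, Etv5 and Shh were named after their values were seen. Alternatives covered litter, embryos left out, dim genes, probe sets, scaling, the variance prior, array weights and Xist. A planned protein comparison was not made.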

Additional observations from a re-analysis of the deposited data

Results flagged for a closer look

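A single embryo stood far from the other 3 of its genotype in 11 of 146 groups of 4 values, where chance gives about 1 in 20, or 7.3. Among the members this was Tnnt2 in control 3 (highest, 9.11) and Myl7 in mutant 4 (highest, 8.42). Control 3 was also highest for Fabp3 (10.68), Tcf21 (11.22) and Epcam (11.32) and lowest for Cacna1c (9.54) and Foxn1 (6.48). Control 1 was highest for Myl2 (7.21). Mutant 3 was lowest for Mpped2 (9.02) and highest for Slc4a1 (8.54), and mutant 2 was lowest for Id2 (12.33). Without control 3 Tnnt2 passed the test, as given above with its adjusted p.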

How the results depend on the processing

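Of 10 members, the direction of Actc1, Tnnt2, Nkx2-5, Tnni3, Myh7 and Nppa was the same in all 23 alternatives. Part of this is built in. For Actc1 and Nkx2-5, whose groups did not overlap, leaving out embryos or litters could not turn the sign. Alternatives that changed only the litter block, the variance prior or the choice of probe sets returned the same estimate for each member. With 1 embryo or 1 litter left out, 0 to 1 members were higher and 0 to 1 lower, the members' median change was −0.026 to 0.228, and all genes numbered 73 to 175 higher and 23 to 90 lower. These counts moved most without mutant 4 (73 and 28), control 4 (89 and 32), litter 4 (75 and 23) and, for lower genes, litter 1 (90). The member called higher was Tnnt2, without control 3 or litter 2; the member called lower was Actc1 without litter 3 (log2 change −0.67, adjusted p 0.0347 by limma). With Xist as a covariate 1 member, Nkx2-5, was higher. Changes turned sign for Tnnc1 (−0.177 to 0.028), Myl4 (−0.141 to 0.091), Myl7 (−0.112 to 0.316) and Myh6 (−0.071 to 0.184) with an embryo or litter left out, and for Myl4 with array weights (0.008). Counts over all genes, 134 higher and 55 lower, were 361 and 313 with Xist, 221 and 105 with array weights, and 65 and 33 with litter means. Lower genes numbered 95 without the litter block, 91 after quantile normalization and 34 with every probe set tested. The replicate block, by the number in the labels, gave 140 higher, 55 lower and 0 members. Over all genes, deviations from the genotype means correlated at −0.27 to 0.03 between same-numbered embryos. Between littermates they correlated at −0.22 to 0.09. These values do not show what the numbers stand for. The causes were not tested. Fits with a litter left out had no litter block and kept a single litter of that genotype. These fits, and those without the litter block, with the number block or with array weights, took littermates as independent. Small changes of dim genes are limited by signal over background.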
